A study of Amaranthus hybridus and Amaranthus hypochondriacus with 18 samples.

Results

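Leaves of the cultivated grain amaranth *Amaranthus hypochondriacus* held a set of 100 transcripts whose level, after scaling between libraries, was higher under water deficit than under both salt stress and control irrigation. Their level under salt was close to control. The set was chosen by a rule on the read counts. Each of the 3 water-deficit libraries had to lie above all control and all salt libraries and at least 0.6 above the control mean, and the salt mean had to lie within 0.5 of the control mean, all in log2 CPM (read counts as a share of the library, scaled by TMM factors, with a prior count of 2). Of the 30946 transcripts of the species' assembly, 12429 passed the filter on low counts, 177 of these (1.42%) met the rule, and the 100 with the largest distance between the water-deficit mean and the higher of the other means were kept. Transcripts of 4 assembly components were to be left out beforehand, and 0 of them met the rule. The same rule turned round gave 192 transcripts lower under water deficit only, and turned on salt it gave 285 transcripts higher under salt only. Because the rule read all 9 *A. hypochondriacus* libraries, every difference of the 100 transcripts between these groups is a description and carries no test.

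The libraries came from leaves of greenhouse plants of cultivated *A. hypochondriacus* and wild *A. hybridus*, with 3 libraries per species and treatment, 18 in all, and each library pooled the leaves of several plants. The plants spent 11 days in a growth chamber and 19 days in a greenhouse, and the treatments then lasted 14 days. Water-deficit plants received no irrigation for the 14 days. Salt-stressed plants were watered daily with 100 ml of NaCl solution. Its concentration was raised in steps, with 7 days on 0.15, 4 days on 0.3 and 3 days on 0.5 mol/l. Control plants were irrigated without NaCl and less often than daily, on the schedule used in the greenhouse before the treatments. Salt-stressed and control plants thus differed in watering frequency as well as in NaCl. The part of watering frequency in the comparisons with salt was not tested. Counts are from bulk leaf tissue, in which fewer cells of a type and less RNA per cell cannot be told apart, and p-values measure only the spread between these pooled libraries.

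Plants that lose water close their stomata under the hormone abscisic acid (ABA), keep up cell volume with compatible solutes, and protect proteins and membranes with dehydrins and raffinose sugars. Light that can no longer be used for carbon fixation feeds the formation of hydrogen peroxide, which the ascorbate-glutathione cycle removes: ascorbate peroxidases oxidise ascorbate, and monodehydroascorbate reductase and dehydroascorbate reductase (DHAR) reduce it again, the last with glutathione as electron donor. Salt stress shares the osmotic component of water deficit and adds sodium and chloride ions.

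Only 1 of the 100 transcripts had a gene name in the sources used here, the glutathione S-transferase DHAR2, and the other 99 are given by their assembly identifiers. In these, DN is the assembly component, c the subcomponent and g the assembled gene, and the prefix of the species and the ending _i1, shared by all, are left out. The 100 transcripts came from 99 components.

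The *A. hypochondriacus* libraries held 10920861 to 20529277 counts, of which the 20 most abundant transcripts took 92.7% to 97.1%. The rest of the transcripts shared 537710, 320449 and 931751 counts in the water-deficit libraries, 992219, 1504700 and 791893 counts in the salt libraries and 603482, 753394 and 632369 counts in the control libraries. The second water-deficit library stood apart: a galactinol-sucrose galactosyltransferase 2 (DN6702_c0_g1), an enzyme of raffinose sugar synthesis, had 32.0, 0.951 and 32.6 CPM in the water-deficit libraries, 0.777, 0.731 and 1.30 CPM under salt and 1.52, 1.79 and 2.16 CPM in the controls. A dehydrin-like transcript (DN1154_c0_g2) likewise had 53.1, 2.99 and 33.0 CPM under water deficit, 3.20, 3.30 and 3.13 CPM under salt and 9.18, 10.7 and 9.14 CPM in the controls. Both were outside the set, since their second water-deficit library did not lie above the others and their salt means were 0.91 and 1.55 below control on the log2 CPM scale. As markers of the labelled tissue, 6 light-harvesting transcripts were used, all of them counted. Their summed level was 18.7 to 23.0 CPM under water deficit, 45.8 to 56.8 CPM under salt and 133 to 196 CPM in the controls. Because this level differed between the treatments, it cannot show whether the groups held the same tissue. A call is a false discovery rate (FDR, Benjamini-Hochberg) under 0.01 with an absolute log2 fold change above 1 in edgeR's quasi-likelihood test. Of these 6 transcripts, 5 were called lower under water deficit than in control (6.95% of all tested transcripts). For salt against control 4 were called lower (6.61% of all tested), and for water deficit against salt 4 (2.36% of all tested). Their part in the values below was not tested. RNA of viruses, summed over the 3 of 5 listed transcripts that passed the filter, was at 42.8 to 150 CPM under water deficit, 90.5 to 304 CPM under salt and 54.6 to 79.1 CPM in the controls.

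Summed over the 100 transcripts, the level was 246, 213 and 258 CPM in the water-deficit libraries, 106, 105 and 86.6 CPM in the salt libraries and 114, 81.7 and 89.1 CPM in the control libraries. The median transcript of the set lay 1.21, 1.13 and 1.21 above its control mean in the 3 water-deficit libraries on the log2 CPM scale, 0.17, 0.22 and 0.0014 above it in the salt libraries, and 0.19, -0.05 and -0.06 from it in the control libraries. The second water-deficit library, which was low in the dehydrin and the raffinose enzyme, was close to the first and the third for the median of this set. The rule brings this with it, since it kept only transcripts in which that library also lay above all control and salt libraries. The second library was still the lowest of the 3 for 44 of the 100 transcripts, against 34 for the first and 22 for the third. Among all 342 transcripts called higher under water deficit than in control, it was the lowest for 59.6%, and among all tested transcripts for 37.9%. The rule did not select those larger groups, so nothing is read from the distance between the shares.

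**Figure D1:**
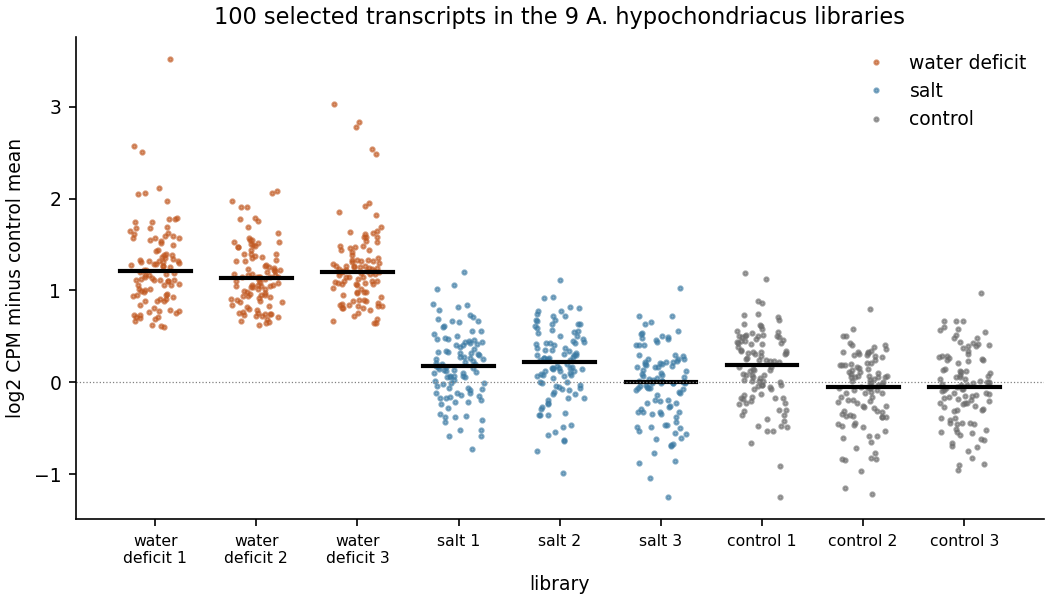
Level of each of the 100 transcripts in the 9 libraries, as log2 CPM minus the transcript's own control mean (points; black bars are the medians over the set). The medians are 1.21, 1.13 and 1.21 in the water-deficit libraries, 0.17, 0.22 and 0.0014 in the salt libraries and 0.19, -0.05 and -0.06 in the controls; the separation of the water-deficit libraries is what the rule selected.

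The difference between the water-deficit and control means ran over 0.78 to 2.43 on the log2 CPM scale, with a median of 1.17. It was above 2 for 5 transcripts, between 1 and 2 for 74 and at most 1 for 21. Against salt, the water-deficit mean was 0.76 to 2.58 higher, with a median of 1.03. The salt mean itself lay between -0.42 and 0.49 from the control mean, with a median of 0.11. It was above the control mean for 69 of the 100 transcripts, where 50.8% of all tested transcripts had a salt mean above control. The rule limited the control and the salt means in different ways, so nothing is read from that count. The room between the lowest water-deficit library and the highest of the other 6 was small for many: it ran over 0.0085 to 1.50 with a median of 0.36, exceeded 0.5 for 21 transcripts and 1 for 2 (DN3050_c0_g1 and DHAR2), and was under 0.1 for 10. Which transcripts make up the set depends on single libraries and on the scaling: without the second water-deficit library the same rule kept 18 of the 100 among its top 100, and with library totals in place of TMM factors it kept 9.

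The set was made up mostly of transcripts with few reads. The mean count per library was 6.22 to 405 with a median of 12.5, where the median of all tested transcripts was 23.1, and 77 of the 100 lay under that median. Summed over 3 libraries, a transcript of the set had 28 to 1596 counts under water deficit (median 52) and 7 to 651 counts in control (median 18). None was at 0 in all 3 control libraries, and 1, DN649_c0_g1, was at 0 in 1 of them. Within groups, the median standard deviation on the log2 CPM scale was 0.24 under water deficit, 0.31 under salt and 0.44 in control for the set, against 0.34, 0.23 and 0.30 for all tested transcripts. The rule itself set a lower limit on each water-deficit library, which bears on that spread.

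DHAR2 (DN288_c0_g1), the dehydroascorbate reductase that returns oxidised ascorbate to its reduced form with glutathione, held rank 2. It had 3.10, 1.49 and 3.76 CPM in the water-deficit libraries, 0.320, 0.325 and 0.378 CPM in the salt libraries and 0.505, 0.357 and 0.499 CPM in the control libraries. All 3 water-deficit libraries were above every other library, the second being the lowest, and all 3 salt libraries were under the middle control value. These levels rest on 39, 11 and 86 counts under water deficit, 7, 12 and 7 under salt and 6, 5 and 6 in control. The means were 2.79 ± 1.17 CPM under water deficit, 0.341 ± 0.0323 CPM under salt and 0.454 ± 0.0834 CPM in control (SD, n = 3 each). The fitted log2 fold change (log2FC) was 2.73 ± 0.35 (SE) for water deficit against control, 3.13 ± 0.32 against salt, and -0.41 ± 0.48 for salt against control. Over the alternative settings and left-out libraries, the log2FC against control ran over 2.41 to 3.13, and without the second water-deficit library it was 2.95.

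DN3050_c0_g1, at rank 1, had 5.72, 3.26 and 5.60 CPM under water deficit, 0.777, 0.785 and 1.08 CPM under salt and 0.589, 1.00 and 1.08 CPM in control. It showed the widest gap of the set: its lowest water-deficit library lay 1.50 above the highest of the other libraries on the log2 CPM scale. Its means were 4.86 ± 1.39 CPM under water deficit, 0.881 ± 0.173 CPM under salt and 0.890 ± 0.264 CPM in control (SD, n = 3 each), and its log2FC was 2.48 ± 0.28 (SE) against control, 2.54 ± 0.25 against salt and -0.06 ± 0.33 for salt against control.

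DN7759_c0_g2, at rank 3, had 19.4, 2.72 and 13.7 CPM under water deficit, 1.55, 2.68 and 1.78 CPM under salt and 1.85, 1.50 and 1.41 CPM in control. Its second water-deficit library sat barely above the highest salt library, and the gap between them was 0.020 on the log2 CPM scale. Its log2FC was 2.96 ± 0.46 (SE) against control and 2.58 ± 0.41 against salt, and 3.38 against control without the second water-deficit library. Of the transcripts in the set it had the largest spread under water deficit, with a standard deviation of 1.49 on the log2 CPM scale.

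DN7636_c0_g1, at rank 4, had 13.9, 8.70 and 23.0 CPM under water deficit, 3.11, 2.71 and 2.00 CPM under salt and 4.88, 2.86 and 2.16 CPM in control. The water-deficit libraries lay above all others, the third being the highest, while salt and control overlapped. Its log2FC was 2.24 ± 0.32 (SE) against control, 2.57 ± 0.31 against salt and -0.33 ± 0.34 for salt against control. DN649_c0_g1, at rank 5, had 0.794, 0.951 and 1.40 CPM under water deficit, 0.274, 0.271 and 0.0540 CPM under salt and 0, 0.214 and 0.415 CPM in control. It rests on 10, 7 and 32 counts under water deficit, 6, 10 and 1 under salt and 0, 3 and 5 in control, and counting error alone is wide at this depth. Its log2FC was 2.36 ± 0.59 (SE) against control and 2.32 ± 0.50 against salt.

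**Figure D2:**
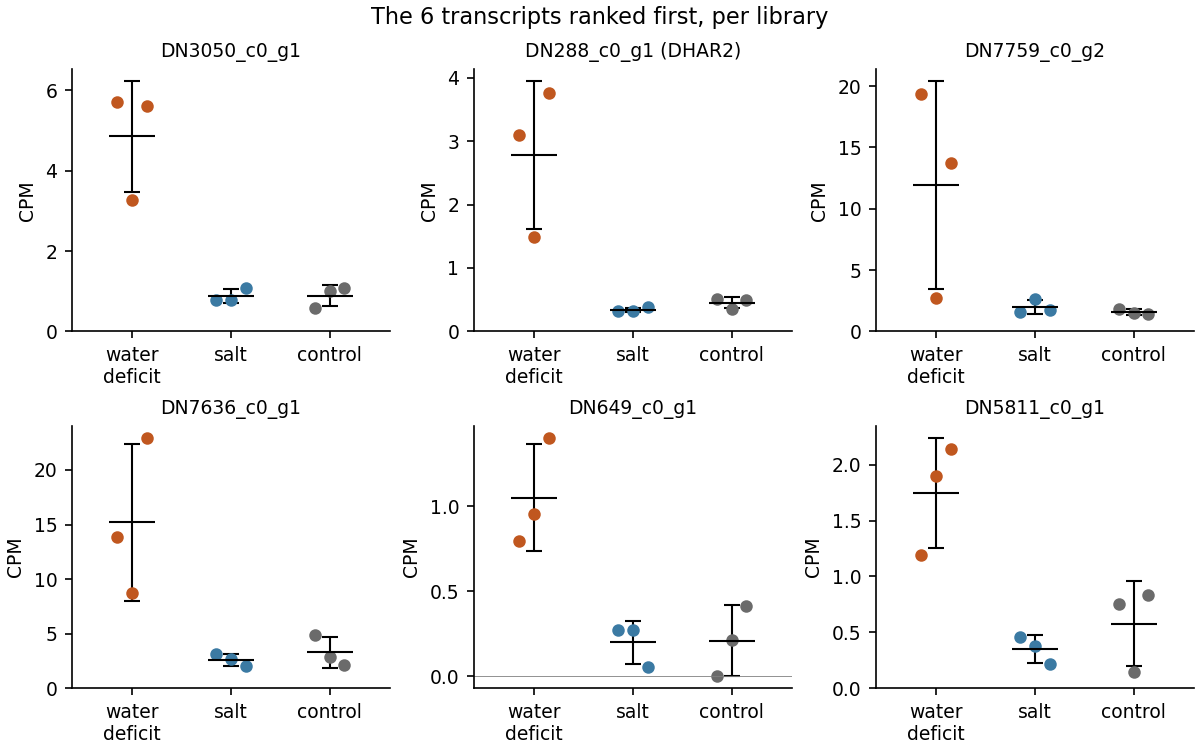
CPM of the 6 transcripts ranked first in each library (points), with the group mean and 1 SD (n = 3). DHAR2 had 1.49 to 3.76 CPM under water deficit, 0.320 to 0.378 CPM under salt and 0.357 to 0.505 CPM in control; the second water-deficit library of DN7759_c0_g2, at 2.72 CPM, lay next to its highest salt library at 2.68 CPM.

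The transcripts at ranks 6 to 10 had at most 3.41 CPM in any library. DN5811_c0_g1 had 1.19, 1.90 and 2.14 CPM under water deficit, 0.457, 0.379 and 0.216 CPM under salt and 0.758, 0.143 and 0.831 CPM in control, with a log2FC of 1.66 ± 0.43 (SE) against control and 2.28 ± 0.41 against salt. DN1549_c0_g1 had 1.19, 1.90 and 1.53 CPM under water deficit, 0.548, 0.568 and 0.324 CPM under salt and 0.421, 0.429 and 0.415 CPM in control. In this transcript the second water-deficit library was the highest, and the log2FC was 1.82 ± 0.36 (SE) against control and 1.58 ± 0.30 against salt.

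DN7758_c0_g1 had 3.33, 1.36 and 2.06 CPM under water deficit, 0.503, 0.487 and 0.540 CPM under salt and 0.673, 0.929 and 0.582 CPM in control. Its salt libraries were all under its control libraries, and its log2FC was 1.64 ± 0.33 (SE) against control, 2.18 ± 0.31 against salt and -0.54 ± 0.39 for salt against control. DN23901_c0_g1 had the most even water-deficit values of these, at 3.41, 2.99 and 3.28 CPM, with 1.19, 1.62 and 0.756 CPM under salt and 1.01, 0.786 and 1.16 CPM in control. Its log2FC was 1.73 ± 0.28 (SE) against control and 1.38 ± 0.24 against salt. DN10327_c0_g1 had 1.35, 1.22 and 1.66 CPM under water deficit, 0.366, 0.595 and 0.432 CPM under salt and 0.926, 0.214 and 0.166 CPM in control. Its first control library was above all 3 salt libraries, and its log2FC was 1.77 ± 0.46 (SE) against control and 1.59 ± 0.39 against salt.

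The transcripts of the set with the highest CPM under water deficit mostly stood lower in the ranking, since the rule ranked by difference and not by level. CPM is not divided by transcript length, so this order is one of read share and not of expression. Mean CPM under water deficit was above 10 in 4 transcripts and at most 10 in the other 96, and its median was 1.17, against 0.530 under salt and 0.473 in control. DN8103_c0_g3 had 33.0, 35.1 and 40.4 CPM under water deficit, 21.4, 18.9 and 12.5 CPM under salt and 23.1, 12.4 and 16.8 CPM in control. All 3 water-deficit libraries were above the rest, with means of 36.1 ± 3.78 CPM under water deficit, 17.6 ± 4.62 CPM under salt and 17.5 ± 5.39 CPM in control (SD, n = 3 each). Its log2FC was 1.05 ± 0.24 (SE) against control, 1.04 ± 0.24 against salt and 0.02 ± 0.24 for salt against control, so that salt and control differed by less than the error of the fit.

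DN3478_c0_g2 had 9.77, 11.0 and 10.6 CPM under water deficit, 4.43, 4.90 and 5.40 CPM under salt and 4.55, 3.29 and 3.74 CPM in control. Its water-deficit libraries differed little among themselves, and its log2FC against control, 1.44 ± 0.18 (SE), had the smallest error of the set. DN6419_c0_g1 had 6.91, 5.84 and 8.27 CPM under water deficit, 2.60, 3.19 and 2.16 CPM under salt and 5.81, 2.79 and 2.66 CPM in control. Here the lowest water-deficit library lay only 0.0085 above the first control library on the log2 CPM scale, the smallest gap of the set.

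The other transcripts among the 10 with the most reads showed the same arrangement at lower levels. DN8120_c0_g2 had 6.27, 5.16 and 6.26 CPM under water deficit, 2.56, 2.44 and 2.97 CPM under salt and 3.62, 2.43 and 1.83 CPM in control. DN2063_c0_g2 had 6.03, 5.44 and 4.55 CPM under water deficit, 1.60, 2.11 and 2.38 CPM under salt and 2.78, 2.43 and 2.99 CPM in control. Its salt libraries were all under its control libraries, and its salt mean was 0.42 below its control mean on the log2 CPM scale, the lowest of the set. DN54_c0_g1 had 7.70, 2.85 and 3.59 CPM under water deficit, 1.51, 2.19 and 1.94 CPM under salt and 2.61, 1.79 and 1.16 CPM in control. DN4836_c0_g2 had 4.05, 4.89 and 4.95 CPM under water deficit, 3.15, 3.06 and 1.73 CPM under salt and 2.61, 2.14 and 1.50 CPM in control. In DN54_c0_g1 the first water-deficit library carried most of the difference, whereas those of DN4836_c0_g2 lay close together.

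A pair of transcripts of the set came from 1 assembly component, DN7505. DN7505_c0_g2 had 5.24, 3.81 and 4.46 CPM under water deficit, 2.24, 2.54 and 2.00 CPM under salt and 2.53, 1.86 and 1.66 CPM in control. DN7505_c0_g1 had 3.10, 2.72 and 4.20 CPM under water deficit, 1.87, 1.92 and 1.57 CPM under salt and 1.60, 1.64 and 1.50 CPM in control. Their log2FC against control was 1.18 ± 0.22 and 1.13 ± 0.23 (SE), and because sequences of a component overlap, they may be parts or copies of one gene and are not separate instances.

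Since the assembler groups related sequences in a component, the other transcripts of the components were looked at in the same libraries. They may be parts or copies of the selected genes, and some share a component with each other. They are therefore neither independent evidence for the set nor separate instances. There were 31 such transcripts in the table, and 25 of them, in 18 components, passed the filter. Their FDR was adjusted over all 12429 tested transcripts. For water deficit against control, 3 of the 25 (12%) were called higher, against 2.75% of all tested transcripts, and 0 were called lower, against 6.95%. Their log2FC was above 0 in 16 of 25 (64%; 50.5% of all tested transcripts), with a median of 0.15 and a range of -0.98 to 2.14, and none met the rule. The count of 3 was 1 without the second or the third control library.

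DN7636_c0_g2, the neighbour of the transcript at rank 4, had 13.4, 6.93 and 21.4 CPM under water deficit, 3.20, 2.60 and 1.57 CPM under salt and 5.22, 3.36 and 2.58 CPM in control. It rose with a log2FC of 1.95 ± 0.34 (SE, FDR = 0.00056 by edgeR's quasi-likelihood test), in 3 of 3 water-deficit libraries. Library by library its values were close to those of DN7636_c0_g1, of which it may be a part or copy, so its FDR is no separate test. DN7758_c1_g1 had 8.18, 1.49 and 5.86 CPM under water deficit, 1.42, 1.24 and 1.46 CPM under salt and 1.85, 1.07 and 0.831 CPM in control. It rose with a log2FC of 2.14 ± 0.41 (SE, FDR = 0.0011, same test), but its second water-deficit library lay among the controls, and the call was lost without the second control library (FDR = 0.014) or the third (FDR = 0.013). DN4603_c0_g1, the last of the 3, had 1.27, 0.408 and 0.875 CPM under water deficit, 0.548, 0.595 and 0.432 CPM under salt and 0.168, 0.286 and 0.249 CPM in control, and lost its call (log2FC 1.90 ± 0.48, FDR = 0.0098) under 12 of its 18 alternatives.

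The component DN7758 also held a transcript named as the NAC transcription factor 29 (DN7758_c0_g2), a name that came from a list the study drew up on these libraries. It had 4.53, 2.04 and 2.98 CPM under water deficit, 2.06, 2.44 and 3.08 CPM under salt and 7.24, 6.72 and 4.32 CPM in control. It was lower under salt than in control (log2FC -1.28 ± 0.25, FDR = 0.0011 by edgeR's quasi-likelihood test), and under water deficit its log2FC was -0.90 ± 0.26 (FDR = 0.019), short of the call. The name NAC29 is not carried over to DN7758_c0_g1. The component of the most-read transcript of the set, DN8103, held DN8103_c0_g2 with 13.2, 8.56 and 12.2 CPM under water deficit, 6.95, 7.09 and 5.13 CPM under salt and 7.16, 4.79 and 5.57 CPM in control. All its water-deficit libraries were above the others, with a log2FC of 0.97 ± 0.21 and an FDR of 0.0037 by the same test, just under the fold needed for a call.

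**Figure D3:**
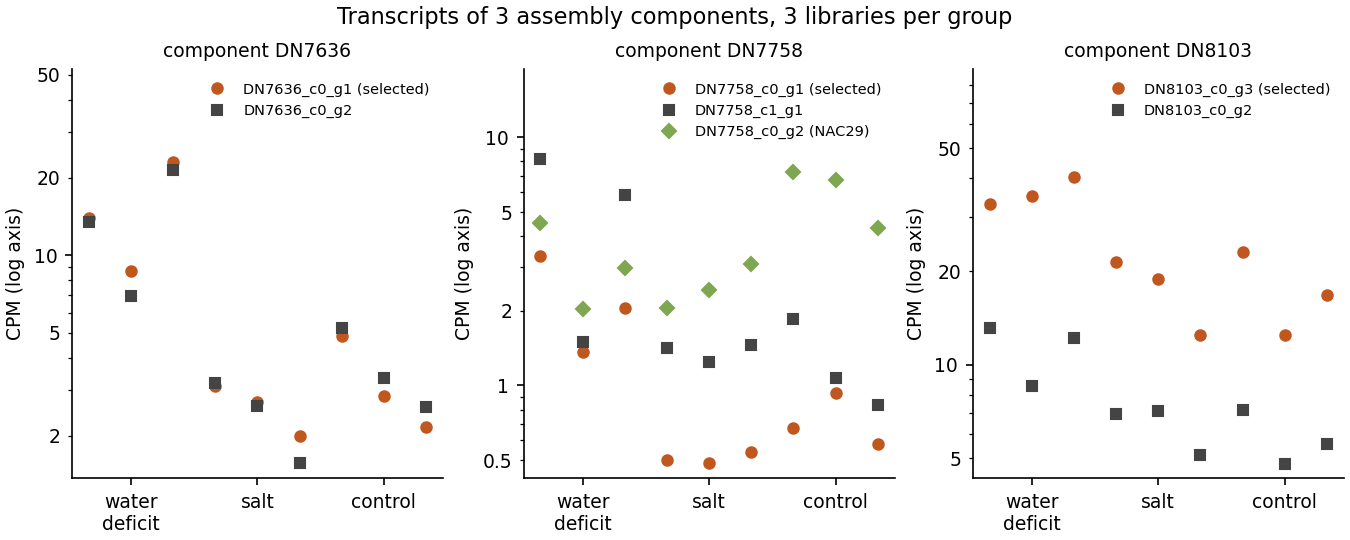
CPM on a log axis of the transcripts of 3 assembly components in the 3 libraries of each group (points, in the order of the library numbers), with the transcripts of the set in orange. DN7636_c0_g2 followed DN7636_c0_g1 closely, DN7758_c1_g1 reached 8.18 CPM in the first and 1.49 CPM in the second water-deficit library, and NAC29 had 4.32 to 7.24 CPM in the controls.

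DN8384_c3_g1, a transcript of the set, shared its component with 2 transcripts named for subunits of the respiratory NADH dehydrogenase. It had 2.14, 2.31 and 1.88 CPM under water deficit, 0.777, 0.433 and 0.972 CPM under salt and 0.758, 0.786 and 1.50 CPM in control. The NADH dehydrogenase subunit 2 transcript (DN8384_c3_g2) had 40.7, 46.3 and 28.8 CPM under water deficit, 16.3, 13.0 and 19.4 CPM under salt and 31.1, 21.8 and 54.3 CPM in control. Its water-deficit libraries overlapped the controls (log2FC 0.11 ± 0.28, FDR = 0.84 by edgeR's quasi-likelihood test), while salt was lower than control (log2FC -1.14 ± 0.29, FDR = 0.0090).

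Over all tested transcripts, 2.75% were called higher for water deficit against control and 1.75% for water deficit against salt. Of the 100 transcripts, 26 were called higher in each of these comparisons, 15 in both and 63 in neither, counts that the rule brings with it and from which nothing is read. They depend on single libraries: against control, 14, 13 and 12 remained past the threshold without the second control, the third control and the third water-deficit library, and against salt 8, 11, 11, 12 and 7 without the first, the second and the third salt and the first and the third water-deficit libraries. For salt against control, where 3.53% of all tested transcripts were called higher and 6.61% lower, 0 of the 100 were called and 0 had an unadjusted p under 0.05 by edgeR's quasi-likelihood test, since the rule required salt to be near control. The log2FC against control ran over 0.83 to 2.96 with a median of 1.30, against salt over 0.76 to 3.13 with a median of 1.13, and for salt against control over -0.62 to 0.97 with a median of 0.15, while the medians of all tested transcripts were 0.01, 0.02 and -0.003. The 3 comparisons share libraries pairwise.

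**Figure D4:**
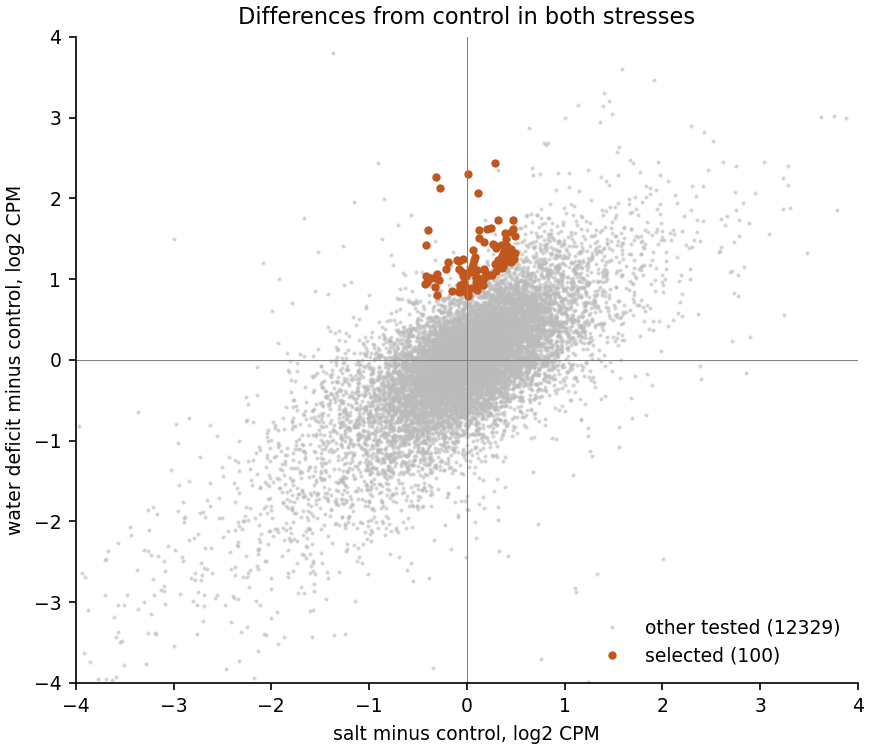
Difference from the control mean under water deficit (vertical) and under salt (horizontal), in log2 CPM, for the 100 transcripts (orange) and the other 12329 tested transcripts (grey). The set occupies the band of salt differences from -0.42 to 0.49 and water-deficit differences from 0.78 to 2.43 that the rule cut out, both axes share the control libraries, and 56 tested transcripts lie outside the plotted range.

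Most transcripts that were called higher under water deficit than in control were not in the set. Of these 316, 229 had at least 1 water-deficit library that was not above all control and salt libraries, and another 71 had a salt mean more than 0.5 from the control mean.

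At the lower end of the set, transcripts inside and outside were alike. The last kept, DN180_c0_g1, DN5657_c0_g1 and DN27069_c0_g1, had a distance between the water-deficit mean and the higher of the other means of 0.76 each on the log2 CPM scale, and the first left out, DN20860_c0_g1, DN13381_c0_g1 and DN17811_c0_g1, had 0.75, 0.74 and 0.74. DN27069_c0_g1, for example, had 1.11, 1.09 and 1.36 CPM under water deficit, 0.594, 0.568 and 0.810 CPM under salt and 0.421, 0.858 and 0.499 CPM in control.

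To place DHAR2 among its pathway, the other transcripts with names of ascorbate and glutathione enzymes were taken from the study's supplementary lists, after DHAR2 was known to be in the set. These lists were drawn up on these libraries and are not independent evidence of a direction. Of the 14 others, all tested, 2 were called higher, 3 lower and 9 neither for water deficit against control, with a median log2FC of -0.05, where 2.75% of all tested transcripts were higher and 6.95% lower. For salt against control 6 were higher and 4 lower (3.53% and 6.61% of all tested), with a median of -1.01. For water deficit against salt 0 were higher and 2 lower (1.75% and 2.36% of all tested), with a median of 0.20. The count of 3 lower was 1 without the second control library and 0 without the third water-deficit library, and both counts were 1 with library totals only.

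Among the recycling enzymes, monodehydroascorbate reductase (DN7421_c0_g1), which reduces the ascorbate radical, had 17.2, 13.5 and 16.4 CPM under water deficit, 16.7, 16.7 and 18.0 CPM under salt and 9.51, 8.51 and 7.56 CPM in control. Both stresses lay above all controls: the log2FC was 0.88 ± 0.18 (SE, FDR = 0.0019) under water deficit, under the fold limit for a call, and 1.00 ± 0.18 (FDR = 0.00055) under salt, by edgeR's quasi-likelihood test. Of the peroxidases, ascorbate peroxidase 5 (DN10760_c0_g1) had 0.397, 0.544 and 0.481 CPM under water deficit, 0.457, 1.68 and 1.30 CPM under salt and 1.94, 3.00 and 2.24 CPM in control. It fell under water deficit with a log2FC of -2.35 ± 0.43 (FDR = 0.00081, same test), in 3 of 3 libraries, and ascorbate peroxidase 1 (DN17896_c0_g1) had a log2FC of 0.07 ± 0.71 (FDR = 0.97).

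GDP-L-galactose phosphorylase (DN6934_c0_g1), the committed step of ascorbate synthesis, had 27.2, 23.9 and 15.9 CPM under water deficit, 28.8, 18.9 and 26.0 CPM under salt and 49.0, 51.0 and 47.6 CPM in control. It fell under both stresses, with a log2FC of -1.15 ± 0.23 (SE, FDR = 0.0016) under water deficit and -1.005 ± 0.23 (FDR = 0.0039) under salt by edgeR's quasi-likelihood test. A probable glutathione S-transferase (DN7487_c0_g1) had 2.62, 1.90 and 1.79 CPM under water deficit, 1.46, 0.893 and 1.78 CPM under salt and 6.99, 4.15 and 4.65 CPM in control, and likewise fell under water deficit (log2FC -1.33 ± 0.27, FDR = 0.0019, same test).

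The 2 that rose did so under both stresses. Gamma-glutamylcyclotransferase 2-2 (DN905_c0_g1), which breaks glutathione down, had 4.76, 2.17 and 4.03 CPM under water deficit, 2.79, 2.57 and 3.62 CPM under salt and 0.758, 1.43 and 1.16 CPM in control, with a log2FC of 1.75 ± 0.30 (SE, FDR = 0.00041) under water deficit and 1.38 ± 0.29 (FDR = 0.0025) under salt by edgeR's quasi-likelihood test. A transmembrane ascorbate ferrireductase 1-like transcript (DN3265_c0_g1), named for electron transfer from ascorbate across a membrane, had 5.40, 5.30 and 4.68 CPM under water deficit, 4.62, 5.14 and 5.29 CPM under salt and 2.61, 2.50 and 1.83 CPM in control. Its log2FC was 1.13 ± 0.19 (FDR = 0.00045) under water deficit and 1.11 ± 0.19 (FDR = 0.00032) under salt by the same test. Some glutathione S-transferases were higher under salt without a call under water deficit: DN16115_c0_g1 had a log2FC of 3.44 ± 0.42 under salt and 0.73 under water deficit, and was lower under water deficit than under salt (log2FC -2.71).

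**Figure D5:**
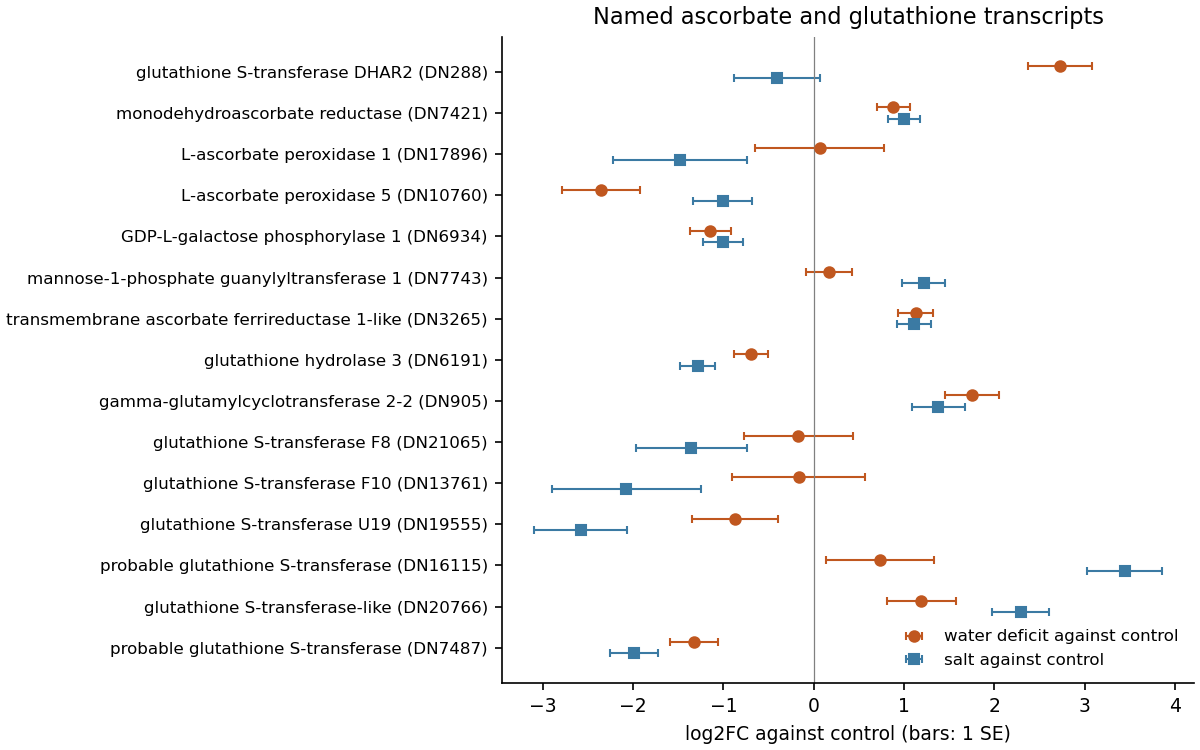
log2FC against control (points, with bars of 1 SE) of DHAR2 and 14 other transcripts with names of ascorbate and glutathione enzymes, for water deficit (circles) and salt (squares). DHAR2, chosen for this arrangement, lies at 2.73 under water deficit and -0.41 under salt; monodehydroascorbate reductase lies at 0.88 and 1.00, and GDP-L-galactose phosphorylase at -1.15 and -1.005.

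The libraries of the wild *A. hybridus* played no part in the rule. In that species 9686 transcripts were tested, and 0.96% were called higher for water deficit against control and 0.0103% for salt against control. Its transcripts with names of ascorbate enzymes were matched by name only, from lists the study drew up on those libraries. The study also assigned orthologs between the species, which were not used for this matching. Whether these transcripts are the counterparts of the *A. hypochondriacus* transcripts was therefore not checked. The DHAR2-like transcript (DN19223_c0_g1) had 1.39, 1.19 and 0.0745 CPM under water deficit, 0.400, 0.314 and 0.0734 CPM under salt and 0.100, 0.259 and 0.362 CPM in control. The third water-deficit library was under all controls and the groups overlapped, with a log2FC of 1.67 ± 0.68 (SE) that did not pass the test (FDR = 0.15 by edgeR's quasi-likelihood test). A further dehydroascorbate reductase (DN6099_c0_g2) had 3.87, 4.53 and 0.372 CPM under water deficit, 1.30, 0.754 and 0.587 CPM under salt and 0.500, 0.881 and 1.33 CPM in control. It too was low in the third library, with a log2FC of 1.58 ± 0.59 (FDR = 0.11, same test). Without that library the log2FC was 2.05 (FDR = 0.0011), and without the second water-deficit library it was 1.15 (FDR = 0.41). Over all alternatives the log2FC ran over 0.097 to 2.05, with an FDR of up to 0.96.

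Monodehydroascorbate reductase of *A. hybridus* (DN8920_c0_g1) had 11.7, 10.6 and 11.5 CPM under water deficit, 5.20, 6.73 and 4.51 CPM under salt and 5.50, 5.13 and 8.24 CPM in control. Its 3 water-deficit libraries were above the rest, but its log2FC of 0.82 ± 0.27 did not pass the test (FDR = 0.072 by edgeR's quasi-likelihood test) and was -0.65 when scaled by library totals alone. Ascorbate peroxidase 1 of *A. hybridus* (DN4211_c0_g2) had 2.12, 1.58 and 1.64 CPM under water deficit, 1.00, 1.63 and 1.47 CPM under salt and 0.701, 0.104 and 0.181 CPM in control. It rose under water deficit (log2FC 2.86 ± 0.49, FDR = 0.0027, same test), in 3 of 3 libraries, and lost the call without the second control (FDR = 0.014), the third control (FDR = 0.022) or the first water-deficit library (FDR = 0.014). The call was also lost in the fit of 6 libraries (FDR = 0.016) and with scaling by library totals alone, where the log2FC was 1.98 (FDR = 0.46). Whether the water-deficit response of these transcripts differs between the species was not tested.

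DHAR2 also belongs to cluster 5 of the study, a group of orthologs formed by clustering expression in these libraries. The direction of that list is therefore not independent evidence. The list was taken as far as the study's supplementary lists name *A. hypochondriacus* transcripts, and it may be incomplete. Of 31 listed transcripts, 22 besides DHAR2 were tested: 15 were higher, 0 lower and 7 not called for water deficit against control, with a median log2FC of 1.64, where 2.75% of all tested transcripts were higher and 6.95% lower. For salt against control 9 were higher (3.53% of all tested), with a median of 0.85, and for water deficit against salt 4 were higher (1.75% of all tested), with a median of 0.65. The 15 became 9 without the second control library, 9 without the third water-deficit library and 25, over more tested transcripts, without the second water-deficit library. None of the tested transcripts of the list but DHAR2 met the rule.

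Of the tested transcripts of the list outside the set, 3 had all water-deficit libraries above the others and a salt mean within 0.5 of control, but a lowest water-deficit library under 0.6 above the control mean. Protein phosphatase 2C 37 (PP2CA, DN7888_c0_g1), a phosphatase of the family that holds back ABA signalling and is itself induced by ABA in Arabidopsis, had 15.7, 7.07 and 11.9 CPM under water deficit, 5.12, 5.01 and 5.73 CPM under salt and 5.89, 6.01 and 4.32 CPM in control. The second water-deficit library lay 0.39 above the control mean on the log2 CPM scale. It rose against control (log2FC 1.12 ± 0.24, FDR = 0.0029) and against salt (log2FC 1.15 ± 0.23, FDR = 0.0041) by edgeR's quasi-likelihood test. The call against control was lost without any 1 of the 3 control libraries or of the first and the third water-deficit libraries (FDR = 0.013 to 0.031), and in the fit of 6 libraries and with library totals only (FDR = 0.011 each).

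The others were phospholipases C, which cleave the head groups of membrane lipids. Phosphoinositide phospholipase C 6 (DN4157_c0_g1) had 2.46, 0.815 and 0.700 CPM under water deficit, 0.366, 0.568 and 0.270 CPM under salt and 0.421, 0.500 and 0.415 CPM in control. Its lowest water-deficit library lay 0.54 above the control mean on the log2 CPM scale, and its log2FC of 1.51 ± 0.52 (SE) was not called (FDR = 0.050 by edgeR's quasi-likelihood test). Non-specific phospholipase C1 (DN1087_c0_g1) had 9.53, 5.30 and 6.39 CPM under water deficit, 5.12, 4.84 and 4.81 CPM under salt and 4.63, 4.15 and 2.99 CPM in control. Its lowest water-deficit library lay 0.45 above the control mean, and its log2FC of 0.86 ± 0.22 (SE) was not called (FDR = 0.011, same test).

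In other transcripts of the list the salt mean lay more than 0.5 above control. Homocysteine S-methyltransferase 2 (DN23971_c0_g1), an enzyme of methionine synthesis, had 3.10, 2.58 and 2.71 CPM under water deficit, 1.46, 1.49 and 2.11 CPM under salt and 0.842, 0.572 and 0.499 CPM in control. Its water-deficit libraries were above all others, but its salt mean was 1.27 above its control mean, so the rule left it out. Acetyl-CoA carboxylase 1 (DN7574_c0_g1), which makes malonyl-CoA for fatty acid synthesis, had 58.9, 42.0 and 53.0 CPM under water deficit, 34.2, 26.5 and 29.0 CPM under salt and 20.2, 15.2 and 17.5 CPM in control. Its salt libraries lay between those of both other groups, with a salt mean 0.76 above control, and its log2FC of water deficit against control was 1.54 ± 0.21 (SE, FDR = 4.6e-05 by edgeR's quasi-likelihood test).

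The study's named transcripts for water channels, ABA, phosphatases 2C, raffinose sugars and dehydrin were drawn from lists made on these libraries, which are no independent evidence of a direction. Of 19 listed, 16 were tested and none was in the set. For water deficit against control 4 were higher, 11 lower and 1 not called, with a median log2FC of -1.95, where 2.75% of all tested transcripts were higher and 6.95% lower. For salt against control 1 was higher and 11 lower (3.53% and 6.61% of all tested), with a median of -2.88. Without the second water-deficit library the count of higher transcripts was 7. The carotenoid cleavage dioxygenase 4 (DN4405_c0_g1), a carotenoid-degrading enzyme, fell under water deficit (log2FC -4.14 ± 0.21, FDR = 2.4e-09 by edgeR's quasi-likelihood test). So did a xanthoxin dehydrogenase of ABA synthesis (DN685_c0_g2, log2FC -4.66 ± 0.29, FDR = 1.7e-08, same test). Both also fell under salt against control (log2FC -4.08 ± 0.21 and -5.27 ± 0.27, FDR = 1.8e-09 each, same test). The aquaporins DN14162_c0_g1, DN27212_c0_g1 and DN1224_c0_g1 were called lower under both stresses. Their log2FC under water deficit was -4.43 ± 0.49 (FDR = 5.8e-06), -1.92 ± 0.35 (FDR = 0.00084) and -1.82 ± 0.41 (FDR = 0.0046) by edgeR's quasi-likelihood test. The remaining tested aquaporin, the tonoplast TIP4-1 (DN1704_c0_g1), rose (log2FC 1.79 ± 0.31, FDR = 0.00043, same test) under water deficit and was also called higher under salt. The 3 that were higher under water deficit than under salt were PP2CA and the galactosyltransferase and dehydrin given above, both of which were low in the second water-deficit library.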

How the data were processed

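Leaf RNA of 2 amaranth species was sequenced in 18 libraries, 3 per species and treatment, and each library pooled the leaves of 3 plants. The authors used Trimmomatic for trimming and Trinity for 1 assembly per species, removed redundancy with CD-HIT and mapped reads with Bowtie2 (version 2.3.0 in the submitters' processing notes), and the authors deposited raw counts of uniquely mapped reads per transcript. Near-identical copies therefore lose shared reads, and transcripts of 1 component are uncertain. All 18 columns were used and 0 per-sample columns were left out.

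From the counts, filterByExpr by the 3 groups, TMM factors and the quasi-likelihood test of edgeR 4.0.16 (R 4.3.3) were run on the 9 *A. hypochondriacus* libraries in 1 fit, and on *A. hybridus* in a fit of its own, with p-values adjusted by Benjamini-Hochberg over the whole tested table, an FDR limit of 0.01 and an absolute log2FC above 1. The SE of a log2FC is its size divided by the square root of F. CPM were scaled by TMM. Intervals of counting error are not given for means of 3 libraries. The scripts were tested on simulated counts with changes of at least 2 on the log2 scale. The median log2FC of the set for water deficit against control was 1.30, so the simulation did not cover most of its changes.

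The 100 transcripts and all lists were chosen with earlier results of these data known. The text names every transcript of the set with a name, the 10 ranked first, the 10 with the highest CPM under water deficit, the 3 on each side of the limit of 100, those sharing a component with each other or with a named transcript, and transcripts of the cluster 5 and the water and ABA lists. The relatives in the components, the ascorbate and glutathione list and the *A. hybridus* transcripts were added after the set was seen. Alternatives were edgeR's exact test, DESeq2 1.42.0, a fit of 6 libraries, other scalings, prior counts, filters and thresholds, a replicate block and each library left out. Same-numbered libraries of different groups did not deviate together (correlations from -0.087 to 0.059), so the numbers were not taken as pairs. The authors describe treatments laid out in randomized complete blocks, and these correlations cannot show that the numbers do not stand for blocks. No reference genome or annotation was used here, so no sequence or position is given.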

Additional observations from a re-analysis of the deposited data

How the results depend on the processing

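Which transcripts enter the set depended on the processing, and the cause was not tested unless given. Of the 100, the top 100 of the same rule kept 95 with RLE size factors, 89 and 79 with prior counts of 0.5 and 5, 85 without the 20 most abundant transcripts, 48 with CPM above 1 in 3 libraries, 23 without a filter (82 still met the rule, among 358) and 9 with library totals only, where the median log2FC of all tested transcripts shifted to 0.38 against control and -0.38 against salt. Relative to those shifts, the median of the 100 was 1.29 and 1.11. Leaving out 1 library kept 18 to 67, the lowest without the second water-deficit library, where 97 still met the rule but 594 transcripts did. Of the 100, 26 were called higher against control, and 47 were by the exact test on 6 libraries, 69 with the FDR limit at 0.05, 5 with the fold limit at a log2FC of 2, and 12 to 31 with left-out libraries. Against salt, 26 of the 100 were called higher, and the count was 44 with the exact test on 6 libraries, 5 with library totals only, 55 with the FDR limit of 0.05, 7 with the fold limit of 2, and 7 to 32 with left-out libraries. Over all tested transcripts, the 342 called higher against control became 637 with the FDR limit of 0.05, 122 with the fold limit of 2 and 176 to 540 with left-out libraries, and the 217 against salt became 140 in the fit of 6 libraries, 63 with library totals only, 400, 77 and 57 to 441. The cluster 5 count of 15 was 7 and the water and ABA counts of 4 and 11 were 1 and 7 with the fold limit of 2. With left-out libraries these 3 counts were 9 to 25, 3 to 7 and 8 to 11. In the lists added after seeing the data, the ascorbate and glutathione counts of 2 higher and 3 lower were 1 and 1 with library totals only and 0 and 1 with the fold limit of 2. The FDR limit of 0.05 left 3 and 3, and the count of 3 component relatives was 1 with the fold limit of 2. Left-out libraries gave 2, 0 to 3 and 1 to 4.

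With the replicate number as a block, the transcripts of the set called higher were 21 against control and 16 against salt, and those of all tested were 301 and 151. The block moved no other count by over 1.5 times. The libraries share a number, and whether it stands for a block of the greenhouse design is not given by the labels. For the 26 named transcripts of the set and its edge, 456 of 463 alternative values of the log2FC stayed within the spread and 7 moved, none with a change of sign. The rule had placed all their water-deficit libraries above all controls, which left the sign little room to change, so nothing is read from this. For 54 list transcripts and relatives, 862 kept their side of the threshold, 76 lost the call, 7 gained it and 20 moved. Depth is a further limit, as the median transcript of the set had 12.5 counts per library.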
